A study of Mus musculus with 12 samples.

Results

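The CGRP and adrenomedullin receptor genes Ramp1, Ramp2, Ramp3, Calcrl and Adm were followed by name across the cells of neonatal mouse meninges. These are 5 of the 28694 gene rows of the expression matrices. They were chosen by the level of Ramp1 in HI and naive macrophages and microglia and by the cell types that carried them in these same libraries. Calcrl encodes the calcitonin receptor-like receptor, a G protein-coupled receptor that reaches the cell surface only with a receptor activity-modifying protein (RAMP) at its side. With RAMP1 the pair binds calcitonin gene-related peptide (CGRP), a neuropeptide that sensory fibres of the meninges release, and with RAMP2 or RAMP3 it binds adrenomedullin, the product of Adm. Adm is thus a ligand gene among 4 receptor genes. The receptor raises cyclic AMP through the G protein subunit Gs, which activates protein kinase A and transcription factors of the CREB family, and in macrophages this signal is known to lower the output of inflammatory cytokines. Adm itself is a textbook target of the hypoxia-inducible factor (HIF).

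The tested pups had hypoxia-ischemia (HI) and were sampled after 6 h, and the control pups were naive, that is without surgery or hypoxia as far as the labels say, so that no sham operation separates the effect of the procedure. All were C57Bl/6j mice at postnatal day 4. Each of 2 HI and 2 naive libraries pooled cells of the brain meninges of 12 mice, 6 male and 6 female, and was read by droplet sequencing of 5′ transcript ends, in which a unique molecular identifier (UMI) stands for 1 captured transcript. The libraries came from 2 runs with 1 HI and 1 naive library each, and the labels do not say which library belongs to which run. The 8 receptor-repertoire libraries of the same pools were not used. A library is the replicate, and p-values measure the spread between these pools.

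After filtering, the HI libraries held 4212 and 6410 cells and the naive libraries 5122 and 5945 cells, with a median of 9766 to 11192 UMIs per cell. Between 29 and 54 barcodes were shared by any pair of libraries, at most 1.05% of the smaller. Cells were gated on marker genes that include none of the 5 genes: 15255 macrophages with leading genes Fcna, Cd163 and Lyve1, 2345 microglia with leading genes that include Sparc and Olfml3, 1221 non-classical monocytes led by Ace and Treml4, and smaller numbers of other leukocytes. A further 809 cells met the macrophage and microglia gates about equally. No cell passed the endothelial or mural gate, which are cell types in which Calcrl and Ramp2 are best known, and 17 were fibroblasts. Levels are UMI counts of all cells of a type in a library scaled to equal totals (CPM), and ± is the SD over 2 libraries.

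The promoters of Ramp1, Calcrl and Adm are shown because Ramp1 and its receptor partner Calcrl differed in their behaviour after HI and because Adm is the HIF target of the set. Each is the RefSeq sequence (GRCm38.p6) of 250 bases before and 50 after a start site of the gene, 5′ to 3′ on the gene's strand. The start site used for Calcrl lies inside the gene span given below, downstream of its outer end at 84425405. Positions count from the start site used. Ramp1 lies at chr1:91179572-91179871 on the plus strand, Calcrl at chr2:84425217-84425516 on the minus strand and Adm at chr7:110627407-110627706 on the plus strand. Capitals mark TGACG, the core of a CREB site, and ACGTG or GCGTG, the core of a HIF site, on either strand.
Ramp1: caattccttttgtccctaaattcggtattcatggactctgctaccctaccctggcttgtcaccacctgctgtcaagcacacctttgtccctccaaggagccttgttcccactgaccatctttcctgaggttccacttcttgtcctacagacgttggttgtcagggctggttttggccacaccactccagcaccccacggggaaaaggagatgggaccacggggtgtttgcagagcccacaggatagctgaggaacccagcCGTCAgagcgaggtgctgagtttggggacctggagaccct
Calcrl: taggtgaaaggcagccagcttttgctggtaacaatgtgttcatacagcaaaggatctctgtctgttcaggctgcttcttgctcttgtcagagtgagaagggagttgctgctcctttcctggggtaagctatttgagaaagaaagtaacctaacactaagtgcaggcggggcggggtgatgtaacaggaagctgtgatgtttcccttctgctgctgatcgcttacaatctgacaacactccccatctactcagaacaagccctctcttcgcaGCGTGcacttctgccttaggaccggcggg
Adm: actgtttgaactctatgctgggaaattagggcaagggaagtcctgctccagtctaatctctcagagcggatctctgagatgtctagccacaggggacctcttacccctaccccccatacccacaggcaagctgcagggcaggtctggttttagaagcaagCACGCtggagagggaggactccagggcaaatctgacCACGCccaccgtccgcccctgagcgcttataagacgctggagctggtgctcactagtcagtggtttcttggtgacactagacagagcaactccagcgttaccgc
The Ramp1 promoter held 1 TGACG, read as CGTCA from the minus strand, at position 11 after the start site, and no HIF core. The Calcrl promoter held 1 GCGTG at position 22 and the Adm promoter 2, both on the minus strand, at positions -90 and -54. Of all 32851 promoters of this length 43.8% held a HIF core and 20.8% TGACG, so that neither match is rare, and a match of letters is not a bound site. The full CREB palindrome TGACGTCA was found in 1.79% of promoters and in none of the 3 sequences. The genes themselves spanned chr1:91179822-91225196 (Ramp1), chr2:84330626-84425405 (Calcrl), chr7:110627657-110629820 (Adm), chr11:6658506-6677478 (Ramp3) and chr11:101246334-101248250 (Ramp2).

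Ramp1, the subunit that makes Calcrl a CGRP receptor, had 13690 UMIs in all. Macrophages, 70.3% of the cells, held 33.8% of these UMIs, and microglia, 10.8% of the cells, held 28.4%. Of the 10 gates that held 8 or more cells in each of the libraries, the highest levels were in gamma-delta T cells, tissue-resident lymphocytes led here by Trdv4, Cd163l1 and Tcrg-V6. They had 705 and 652 CPM of Ramp1 in the HI libraries, against 772 and 576 CPM in the naive libraries. With 0.258% of the cells they carried 4.15% of the Ramp1 UMIs, and 54 of the 56 cells had at least 1. Their median was 10 and 8 Ramp1 UMIs per cell in the HI libraries and 10 and 7 in the naive libraries. The 2 groups overlapped. Not a single Calcrl UMI was found in these 56 cells.

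Group 2 innate lymphoid cells came next, a gate of 60 cells with leading genes Tcrg-C1, a T cell receptor gene, Gata3, Stab2 and Cxcr6. They had 792 and 353 CPM of Ramp1 in the HI libraries, against 414 and 304 CPM in the naive libraries, from 10 to 19 cells a library. Among these 10 classes the order continued in the naive libraries with classical monocytes at 185.5 ± 6.5 CPM, microglia at 152.7 ± 7.99 CPM, Cd209a+ dendritic cells at 151.4 ± 40.8 CPM, T cells at 113.9 ± 5.19 CPM, non-classical monocytes at 100.9 ± 10.0 CPM, mature neutrophils at 65.8 ± 25.4 CPM and macrophages at 37.35 ± 1.82 CPM. Of these neighbours, microglia and dendritic cells overlapped between libraries, and the others did not. In the HI libraries, where innate lymphoid and gamma-delta T cells overlapped, dendritic cells followed them at 156.4 ± 21.9 CPM. T cells at 96.35 ± 14.0 CPM, microglia at 91.3 ± 9.62 CPM, classical monocytes at 73.1 ± 16.9 CPM and non-classical monocytes at 71.65 ± 16.0 CPM overlapped in a chain, and mature neutrophils at 32.9 ± 7.8 CPM and macrophages at 16.6 ± 0.117 CPM stood below them. B cells held 1 Ramp1 UMI in 92 HI cells and 6 in 138 naive cells, or 0.629 ± 0.89 and 3.94 ± 0.248 CPM, the lowest of the 10, and served as the background class. The other 9 classes had fewer cells in at least 1 library and are left out of the order. Of them, plasmacytoid dendritic cells had 292.8 ± 264 CPM in HI and 277.9 ± 206 CPM in naive libraries from 1 to 5 cells a library. Basophils and mast cells had 181 ± 233 and 87.2 ± 123 CPM, and immature neutrophils 78.8 ± 72.0 and 155.1 ± 94.6 CPM. Choroid plexus cells had no Ramp1 UMI in 1 HI and 15 naive cells. Pre-B cells, of the same lineage as the background class, had 69.5 CPM in HI library 2, from 10 cells. In naive libraries they had 116.7 ± 3.58 CPM, from 25 cells.

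**Figure D1:**
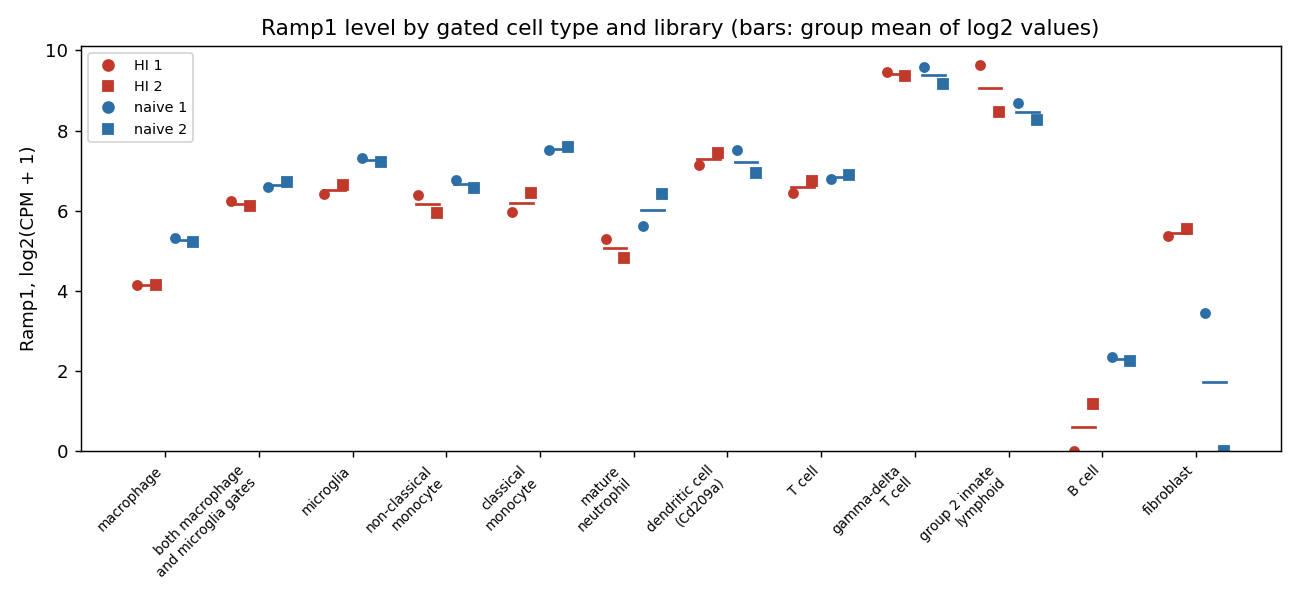
Ramp1 level as log2(CPM + 1) in 12 gated classes, with a circle for library 1 and a square for library 2 of each group, HI in red and naive in blue, and bars at the group means of the log2 values. Both HI libraries lie below both naive libraries in macrophages, microglia, the cells between their gates, classical and non-classical monocytes, mature neutrophils, T cells and B cells, and the groups overlap in dendritic, gamma-delta T and innate lymphoid cells; B cells and fibroblasts rest on 7 and 5 UMIs.

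The lower Ramp1 in macrophages and microglia after HI is what these genes were chosen for, and it is given as values with no test. Macrophages had 606 and 818 Ramp1 UMIs in the HI libraries, against 1548 and 1655 in the naive libraries. As levels that was 16.7 and 16.5 CPM in the HI libraries, against 38.6 and 36.1 CPM in the naive libraries. The HI libraries differed from each other by far less than from either naive library, and the log2 fold change, HI over naive, was -1.15. Microglia had 84.5 and 98.1 CPM in the HI libraries, against 158 and 147 CPM in the naive libraries, a log2 fold change of -0.76. The 2 groups did not overlap here either. In the 809 cells between the gates the level was 74.2 and 68.3 CPM in the HI libraries and 95.3 and 104 CPM in the naive libraries, so that the order held in this class as well.

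Fewer cells carried Ramp1, and carriers held fewer copies. Among macrophages 14.7% and 13.7% of cells had a Ramp1 UMI in the HI libraries, against 29.0% and 26.5% in the naive libraries. With every cell thinned to 3000 UMIs the shares were 4.61% and 4.52% in HI and 10.0% and 9.68% in naive macrophages. No kept cell was shallower than that. B cells, as background, carried Ramp1 in 0.758% of HI cells and 2.90% of naive cells on average, at a median of 8788 UMIs per cell against 10596 in macrophages. Macrophage carriers had on average 1.32 ± 0.0627 Ramp1 UMIs in HI and 1.54 ± 0.0638 in naive libraries. Cells with 2 or more Ramp1 UMIs were 3.65% and 2.70% of HI macrophages, against 9.80% and 7.89% of naive macrophages. The tail of well-expressing cells was thus shorter, with the highest cell at 11 and 8 UMIs in HI and 23 and 28 in naive libraries. Among microglia the thinned share was 17.8 ± 0.833% in HI and 30.4 ± 1.89% in naive libraries, and 27.0% and 26.4% of HI microglia, against 45.1% and 42.6% of naive microglia, had 2 or more UMIs.

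**Figure D2:**
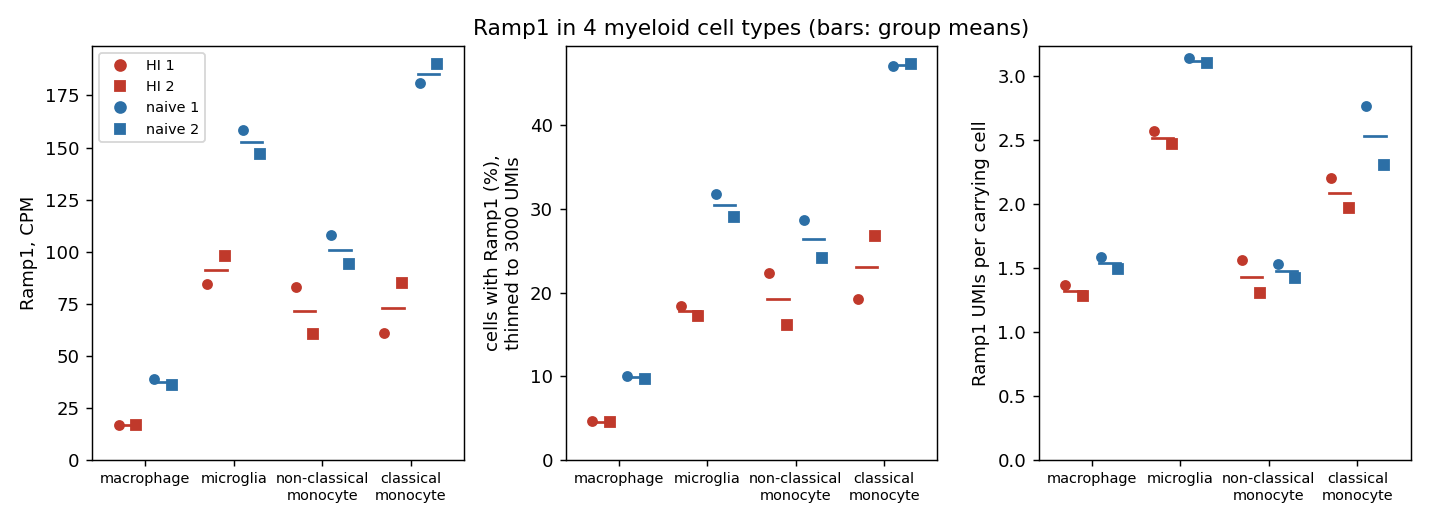
Ramp1 in macrophages, microglia, non-classical and classical monocytes as CPM (left), as the percentage of cells with a Ramp1 UMI after thinning each cell to 3000 UMIs (middle), and as UMIs per carrying cell (right), with 1 point per library, HI in red and naive in blue, and bars at group means. All 4 cell types have both HI libraries below both naive libraries in CPM and in the thinned share, while UMIs per carrier overlap in non-classical monocytes.

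Marker lists of other cell types were summed in macrophages. Some markers were not confined to their type, so a sum is not only RNA of that type. Cd79b of the B cell list was found in 48.8% of cells outside the B cell gate. Cd79a of that list overlapped in macrophages, at 0.165 and 1.33 CPM in HI and 0.125 and 1.09 CPM in naive libraries. Of 10 lists, 5 were lower in both HI libraries than in both naive libraries (neural, choroid plexus, endothelial, innate lymphoid and B cell), 1 was higher and 4 overlapped. The summed level of 10 neural markers in macrophages was 51.9 and 79.2 CPM in the HI libraries, against 174 and 151 CPM in the naive libraries, with no marker at 0 in any library. The 10 choroid plexus markers summed to 52.7 and 49.9 CPM in HI and 145 and 104 CPM in naive macrophages, with 1 marker at 0 in 1 HI library. The endothelial list summed to 132 and 109 CPM in HI and 200.3 and 160.3 CPM in naive macrophages, nearly all of it from Egfl7, at 127 and 104 CPM in HI and 198 and 156 CPM in naive macrophages. The other endothelial genes went both ways. Pecam1 was higher in HI, at 2.31 and 2.51 CPM against 0.973 and 1.44 CPM in naive macrophages, as were Cdh5 and Kdr. Flt1 was lower, at 0.11 and 0.0606 CPM in HI and 0.15 and 0.131 CPM in naive macrophages, as was Tek. Cldn5, Ly6c1, Emcn and Esam overlapped. The neutrophil list was the higher one, at 164 and 79.8 CPM in HI and 69.2 and 68.9 CPM in naive macrophages. In microglia 3 lists were lower in HI, 2 higher and 5 overlapped, and the neural markers summed to 12.4 and 16.0 CPM in the HI libraries, against 29.8 and 25.1 CPM in the naive libraries, with up to 1 marker at 0. The part of this RNA in the microglia values was not tested. When macrophages with 2 or more neural or choroid plexus markers were left out, the Ramp1 log2 fold change was -1.27, against -1.15 with them. That cut kept 2335 of 3015 and 3458 of 4669 HI macrophages, but 1805 of 3376 and 2496 of 4195 naive macrophages. The part of this RNA in the macrophage values was not tested either. The gamma-delta T cell list, of the cells richest in Ramp1, summed to 3.91 and 1.78 CPM in HI and 6.64 and 1.74 CPM in naive macrophages, which did not separate the groups. Trdc, its defining receptor gene, had 0 UMIs in 3 of the 4 libraries and 4 UMIs in naive library 1.

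The lower level was then described in subsets of macrophages. Macrophages were split by detection of Lyve1, Cd209f, Timd4, MHC class II genes, the chemokines Ccl2, Ccl7 or Ccl12, the division genes Mki67 or Top2a, and Spp1 (osteopontin), each with and without. In 13 of these 14 subsets both HI libraries were below both naive libraries, with log2 fold changes of -1.06 (dividing cells) to -1.53 (class II+ cells). The subsets share cells, and Lyve1+ cells alone were 95.1% to 97.8% of macrophages. The count thus in large part repeats the value of all macrophages. Spp1+ macrophages, among the richest in naive libraries, had 19.5 and 21.4 CPM in the HI libraries, against 58.2 and 57.6 CPM in the naive libraries. The Spp1+ share itself was 42.0% and 31.3% of HI macrophages, against 19.0% and 15.9% of naive macrophages, and in macrophages without Spp1 Ramp1 had 14.5 and 14.1 CPM in HI and 33.4 and 31.2 CPM in naive libraries. Cd209f+ macrophages were the poorest in the naive libraries, at 23.9 and 23.5 CPM, and had 12.3 and 9.01 CPM in the HI libraries. Timd4+ macrophages had 11.7 and 11.5 CPM in the HI libraries, so the lowest subset differed between them. Only the macrophages without Lyve1, 2.21% to 4.86% of all, overlapped, at 64.5 and 21.4 CPM in HI and 61.8 and 50.1 CPM in naive libraries.

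**Figure D3:**
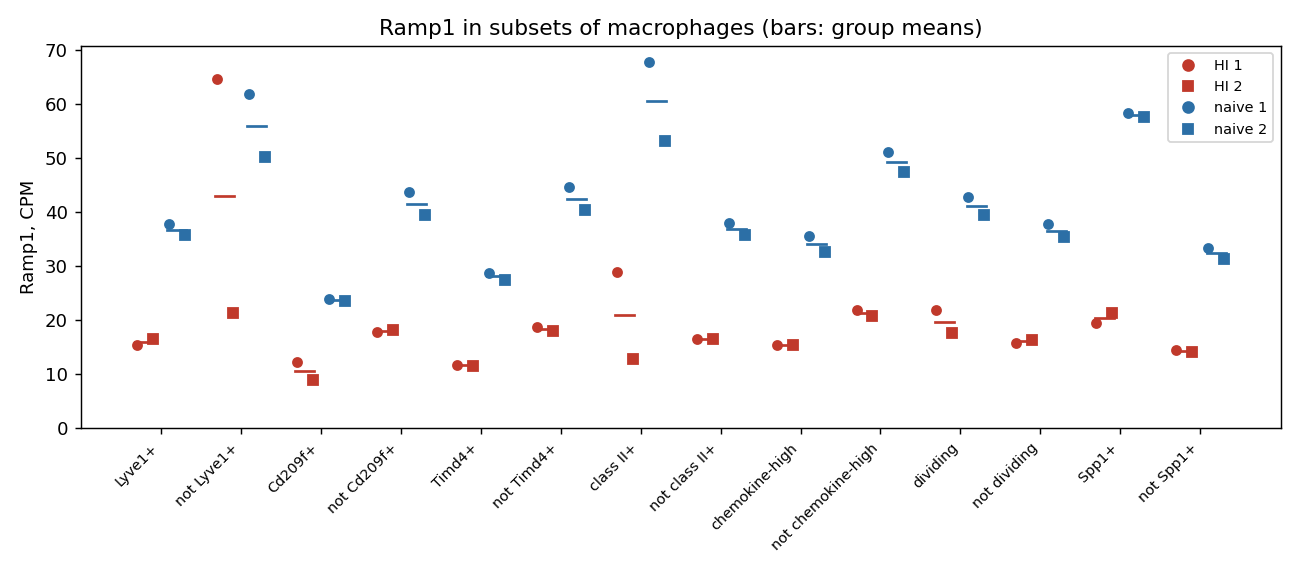
Ramp1 CPM in macrophages with and without detected markers, 1 point per library, HI in red and naive in blue, and bars at group means. Every pair of HI points lies below its naive pair except in macrophages without Lyve1, where HI library 1 is at 64.5 CPM.

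Outside macrophages and microglia the same contrast could be tested, in the same libraries, with edgeR's quasi-likelihood test on summed counts and Benjamini-Hochberg adjustment over all genes of the cell type (a call is an adjusted p under 0.05). Classical monocytes had 61.1 and 85.1 CPM of Ramp1 in the HI libraries, against 181 and 190 CPM in the naive libraries. Ramp1 fell by 1.28 on the log2 scale there (edgeR adjusted p = 0.0469, both HI libraries below both naive libraries), where 1.04% of 4707 genes were called. DESeq2 gave an adjusted p of 0.19. Ramp1 was chosen for this contrast in macrophages and microglia of these same libraries, so the p-values here do not come from independent data. Like the other types with fewer than 40 cells in a library, classical monocytes were fitted only after seeing the data. The 10 neutrophil markers summed to 24587 and 20805 CPM in HI and 1898 and 6357 CPM in naive classical monocytes, with 1 or 2 markers at 0, and their part in the Ramp1 values was not tested. Non-classical monocytes had 83.0 and 60.3 CPM in HI and 108 and 93.9 CPM in naive libraries. Their log2 fold change was -0.56 and missed the threshold (edgeR adjusted p = 0.0544, 2.03% of 8443 genes called), and DESeq2 gave an adjusted p of 0.543. With 1 library left out the edgeR adjusted p was 0.0167 without HI library 1 (log2 -0.74), 0.658 without HI library 2 (log2 -0.32), 0.245 without naive library 1 and 0.203 without naive library 2. The neutrophil markers in these cells summed to 635 and 1792 CPM in HI and 319 and 577 CPM in naive libraries, the neural markers to 3.61 and 6.23 CPM in HI and 13.2 and 13.9 CPM in naive libraries, and the gamma-delta T cell markers to 0.902 and 0 CPM in HI and 11.1 and 10.1 CPM in naive libraries. Their part in the Ramp1 values was not tested. In mature neutrophils the level was 38.4 and 27.4 CPM in HI and 47.8 and 83.8 CPM in naive libraries, a log2 fold change of -0.75 that was not called (edgeR adjusted p = 0.415, 3.85% of 3407 genes called).

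In dendritic cells and T cells no difference in Ramp1 was called. Cd209a+ dendritic cells, which present antigen, had 141 and 172 CPM of Ramp1 in HI and 180 and 123 CPM in naive libraries. The groups overlapped, with a log2 fold change of 0.07 (edgeR adjusted p = 0.996, 0.0722% of 5541 genes called), which turned to -0.15 without HI library 2 and to -0.15 without naive library 2. T cells had 86.5 and 106 CPM in HI and 110 and 118 CPM in naive libraries (log2 -0.22, edgeR adjusted p = 0.9995, 0.0257% of 3895 genes called), with both HI libraries below both naive libraries. Whether the change in any of these types differed from that in macrophages was not tested.

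Of the 3421 UMIs of Calcrl, the receptor itself, 85.5% were in macrophages, which were 70.3% of the cells. Macrophages had 18.1 and 17.1 CPM in the HI libraries, against 17.5 and 15.7 CPM in the naive libraries. The groups overlapped, with a log2 fold change of 0.10, and 17.0 ± 1.84% of HI and 16.5 ± 2.0% of naive macrophages carried it. Mature neutrophils had 14 UMIs in HI and 6 in naive libraries, or 7.99 ± 9.46 and 17.2 ± 4.61 CPM. Microglia had 3.41 and 4.74 CPM in HI and 3.39 and 2.98 CPM in naive libraries, and non-classical monocytes had 6.31 and 5.27 CPM in HI and 7.38 and 6.38 CPM in naive libraries (log2 -0.29, edgeR adjusted p = 0.883). B cells, for comparison, gave 1.26 ± 1.78 CPM in HI and 1.31 ± 0.0827 CPM in naive libraries. Across the 14 macrophage subsets the Calcrl groups overlapped in all but the Spp1+ and the Timd4-negative cells, in which HI was higher by 0.26 and 0.12 on the log2 scale.

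The receptor and its CGRP subunit were distributed in opposite ways over the 3 largest myeloid types. Since the genes were chosen for the cell types that carry them, these differences are given with no test. In macrophages against microglia, with library as a block, the log2 fold change was 2.22 for Calcrl and -2.24 for Ramp1, each in the same direction in 4 of 4 libraries. In macrophages against non-classical monocytes it was 1.32 for Calcrl and -1.79 for Ramp1. A difference between these types is common among all genes, with 69.6% of 12926 and 69.6% of 12733 genes called by edgeR.

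Macrophages with and without Calcrl were compared for Ramp1. Of macrophages with a Calcrl UMI, 14.5% and 12.6% in the HI libraries and 30.5% and 24.4% in the naive libraries also had a Ramp1 UMI. Of macrophages without Calcrl, 14.8% and 13.9% in HI and 28.7% and 26.8% in naive libraries had one. Both shares were lower in HI. Calcrl+ cells were deeper, at a median of 12498 against 10885 UMIs for the others in HI library 1. With every cell thinned to 3000 UMIs, 2.86% and 4.33% of Calcrl+ cells had Ramp1 in HI (5 of 175 and 10 of 231 cells), against 9.88% and 10.2% in naive libraries (17 of 172 and 20 of 197), and of the others 4.72% and 4.53% had it in HI and 10.0% and 9.65% in naive libraries. No RAMP transcript of any kind was detected in 84.9% and 86.1% of Calcrl+ HI macrophages, against 67.7% and 73.9% of Calcrl+ naive macrophages. Missing UMIs at this depth are not absence of the protein. Of Calcrl+ microglia, 21 to 38 cells a library, 60.9% and 57.9% in HI and 58.1% and 90.5% in naive libraries had Ramp1.

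**Figure D4:**
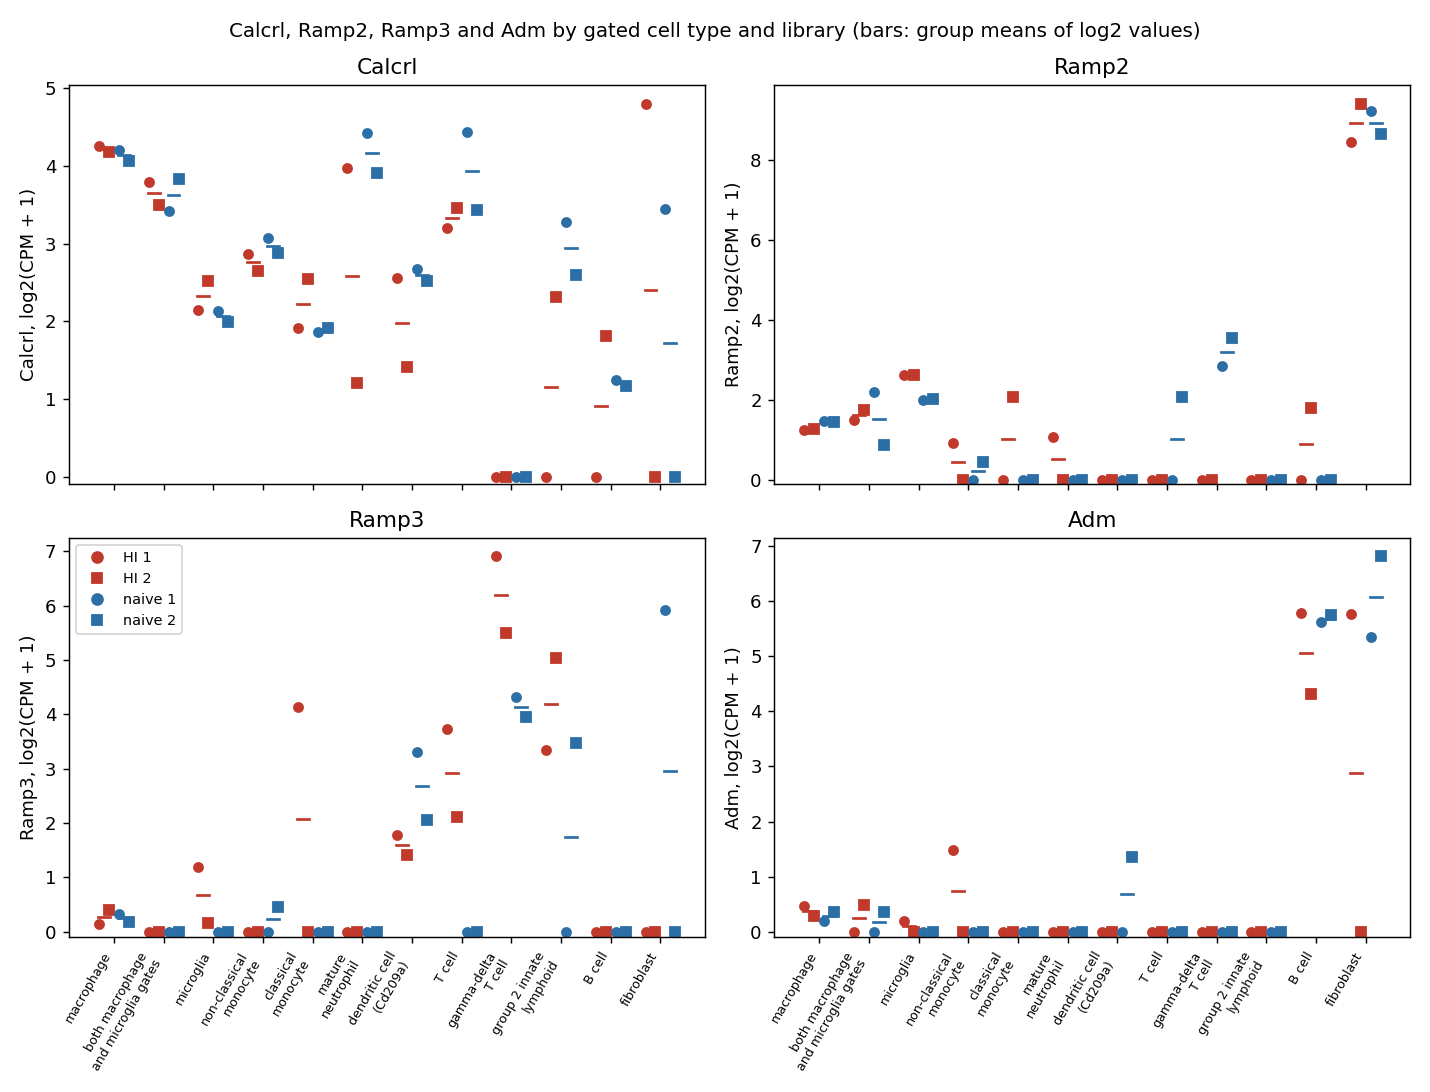
Levels of Calcrl, Ramp2, Ramp3 and Adm as log2(CPM + 1) in the same 12 classes, 1 point per library, HI in red and naive in blue, with bars at group means of the log2 values. Calcrl is 15.7 to 18.1 CPM in the 4 macrophage libraries, and naive neutrophils at the same height rest on 6 UMIs. Ramp2 is highest in fibroblasts, HI Ramp3 in gamma-delta T cells (naive fibroblast Ramp3 is 6 UMIs of 1 library) and Adm in B cells and fibroblasts; points at 0 are libraries with no UMI.

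Ramp2, the subunit of the main adrenomedullin receptor, had only 647 UMIs, and 18.4% of them came from the 17 fibroblasts. Fibroblasts had 350 and 680 CPM in the HI libraries, from 4 and 2 cells, against 595 and 401 CPM in the naive libraries, from 6 and 5 cells, and all 17 carried it. Macrophages had 1.38 and 1.44 CPM in HI and 1.82 and 1.77 CPM in naive libraries. Microglia had 5.25 and 5.22 CPM in HI and 3.06 and 3.12 CPM in naive libraries. The groups did not overlap in either type, with log2 fold changes of -0.33 in macrophages and 0.74 in microglia, and neither was called (edgeR adjusted p = 0.352 and 0.233). Macrophages against microglia had a log2 fold change of -1.37, and non-classical monocytes had 1 Ramp2 UMI in the HI and 1 in the naive libraries. The 10 fibroblast markers summed to 17.0 and 18.5 CPM in HI and 18.0 and 20.2 CPM in naive macrophages, and to 1.42 and 1.70 CPM in HI and 1.97 and 1.28 CPM in naive microglia. The endothelial markers summed to 27.0 and 24.4 CPM in HI and 29.9 and 32.6 CPM in naive microglia, mostly Pecam1 and Egfl7, with 4 or 5 of the 10 at 0, Cldn5 among them. The part of this RNA in the Ramp2 values was not tested.

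Ramp3, the other adrenomedullin subunit, had 144 UMIs in all. Gamma-delta T cells held 15 and 5 of them in the HI libraries, from 8 and 9 cells, against 6 and 4 in the naive libraries, from 21 and 18 cells. That was 119 and 44.1 CPM in HI and 18.9 and 14.4 CPM in naive libraries, with 4 and 3 carriers in HI and 2 and 3 in naive libraries. The groups did not overlap, but the counts are too small for the fit over all genes. Innate lymphoid cells had 9 UMIs in HI and 2 in naive libraries. Macrophages were near 0, at 0.217 ± 0.151 CPM in HI and 0.19 ± 0.0841 CPM in naive libraries.

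Adm, the adrenomedullin gene, was found mainly in B cells, which held 61.1% of its 180 UMIs while being 1.06% of the cells. B cells had 54.5 and 18.9 CPM in the HI libraries, against 48.0 and 52.7 CPM in the naive libraries. The groups overlapped (log2 -0.68, edgeR adjusted p = 0.999, 0.119% of 6741 genes called), and the sign turned to 0.13 without HI library 2. Of 230 B cells 38 carried Adm, with up to 13 UMIs in 1 cell. These carriers had Cd79a, Ms4a1 and Ighm in every cell, against 100%, 93.2% and 99.5% of the other B cells. These genes are markers of the B cell gate, so their presence was largely fixed by the gating. Ighd and Cd22, also of the gate, were in 57.9% and 60.5% of carriers and 54.2% and 54.7% of the others. The median depth of the carriers was 12352 UMIs against 8079 in the other B cells. Fibroblasts added 4 UMIs in HI and 9 in naive libraries. Macrophages, the bulk of the cells, had 14 and 11 Adm UMIs in the HI libraries and 6 and 13 in the naive libraries, or 0.386 and 0.222 against 0.15 and 0.283 CPM, which overlapped.

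Other genes of the pathway were taken from lists of 99 genes, of which 97 were in the files. Of the ligands, Calca, the gene of alpha-CGRP, had 600 UMIs, and 82.2% of them were in the 60 group 2 innate lymphoid cells. These cells held 247 and 240 Calca UMIs in the HI libraries, against 6 and 0 in the naive libraries. The carriers were 5 of 10 and 5 of 19 HI cells, against 2 of 15 and 0 of 16 naive cells. Calca was therefore seen in these cells mostly after HI, but from few cells: 93 and 156 of the HI UMIs came from the highest cell of each library, which leaves 154 and 84 UMIs without it. Of the 12 Calca carriers 8 also had Ramp1, and of all 60 cells 51 did. With 10 to 19 cells a library no fit over all genes was made, so the difference has no test. Macrophages had 3 and 5 Calca UMIs in HI and 3 and 3 in naive libraries. The beta-CGRP gene Calcb had 1 UMI in gated cells, Adm2 had 2, and amylin (Iapp) and the calcitonin receptor (Calcr) had 0.

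Of the ligand-processing and receptor lists, 5 and 1 genes could be tested in macrophages, 5 and 2 in microglia and 5 and 1 in non-classical monocytes, and none was called by edgeR or DESeq2, with 2, 2 and 1 of them at an unadjusted edgeR p under 0.05. The amidating enzyme Pam, which finishes CGRP and adrenomedullin, had 8.43 and 8.41 CPM in HI and 9.01 and 9.09 CPM in naive macrophages (log2 -0.09, edgeR adjusted p = 0.622). The protease Ece1 had 3.61 and 4.71 CPM in HI and 6.36 and 5.97 CPM in naive macrophages (log2 -0.54, edgeR adjusted p = 0.108). Ide, the insulin-degrading enzyme, was at 29.8 and 25.7 CPM in HI and 23.4 and 21.5 CPM in naive macrophages (log2 0.31, edgeR adjusted p = 0.0846). Crcp, which encodes a further receptor component, and the protease gene Furin had log2 fold changes of -0.02 and 0.05 in macrophages (edgeR adjusted p = 0.905 and 0.696). The scavenger receptor Ackr3, tested only in microglia, had 4.69 and 8.01 CPM in HI and 9.96 and 10.6 CPM in naive microglia (log2 -0.69, edgeR adjusted p = 0.242).

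Downstream, 12 of 75 tested list genes were called in macrophages, 8 higher and 4 lower, where 4.42% of all 13288 genes were called, and 4 of 60 in microglia, all lower, where 0.53% of 10935 genes were called. The lists were chosen with earlier results of these data known, so these shares do not test the pathway. Without the HIF targets, 2 of 64 genes were higher and 4 lower in macrophages, and 3 of 50 were lower in microglia. Over all lists, DESeq2 called 12 in macrophages. In microglia it called 0, with 12 at an unadjusted p under 0.05, and it gave an adjusted p to 21 of the 60 genes and to none of the 4 that edgeR called. None of 56 was called in non-classical monocytes by edgeR or DESeq2, with 10 and 3 at an unadjusted p under 0.05. The median log2 fold change of the list genes was 0.01 in macrophages, -0.10 in microglia and 0.05 in non-classical monocytes, against 0.00 over all genes in each. In macrophages 6 of the 8 higher genes were among the 11 tested HIF targets. Slc2a1, the glucose transporter, had 10.1 and 12.0 CPM in HI and 5.87 and 5.62 CPM in naive macrophages (log2 0.96, edgeR adjusted p = 0.0161), and Ankrd37, another HIF target, rose by 0.78 (adjusted p = 0.0296). Egln3, a prolyl hydroxylase that marks HIF for decay, had 2.40 and 6.51 CPM in HI and 0.524 and 0.567 CPM in naive macrophages (log2 3.06, edgeR adjusted p = 0.0265). Adm was not called among them. In microglia Egln3 fell, to 4.26 and 4.74 CPM in HI, against 11.9 and 9.92 CPM in naive microglia (log2 -1.30, edgeR adjusted p = 0.0435).

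Among genes of the cyclic AMP pathway, the prostaglandin E2 receptor gene Ptger4, whose product also signals through Gs, had 3.69 and 3.62 CPM in HI and 0.973 and 0.937 CPM in naive macrophages (log2 1.95, edgeR adjusted p = 0.00474). It was called under every alternative tried. Gnas, which encodes Gs, had 114 and 110 CPM in HI and 132 and 134 CPM in naive macrophages (log2 -0.24, edgeR adjusted p = 0.0464), and Arrb1, a beta-arrestin that desensitises receptors, fell by 0.27 (adjusted p = 0.0417). Of the list of CREB family and cyclic AMP target genes, the early genes Fos and Dusp1 fell in macrophages (log2 -0.52 and -1.06, edgeR adjusted p = 0.0296 and 0.0478). Thbs1 of the same list rose (log2 1.39), called by DESeq2 (adjusted p = 0.0119) but not by edgeR (adjusted p = 0.0525). Whether CREB had a part in these changes was not tested. In microglia Fos had 11.1 and 13.7 CPM in HI and 50.4 and 43.1 CPM in naive libraries (log2 -1.93, edgeR adjusted p = 0.00418). Fosb and Dusp1 fell there as well (log2 -2.44 and -1.47, adjusted p = 0.0361 and 0.0219). Leaving out naive library 2 ended the macrophage calls of Gnas, Arrb1, Fos, Dusp1, Slc2a1, Ankrd37 and Egln3 (adjusted p = 0.107 to 0.303) and the microglia calls of Fosb, Dusp1 and Egln3 (0.121 to 0.215). Leaving out naive library 1 ended those of Gnas, Arrb1, Dusp1 and Ankrd37 in macrophages (0.0581 to 0.196) and of Fosb, Dusp1 and Egln3 in microglia (0.0617 to 0.259). Without HI library 1 Gnas and Arrb1, and without HI library 2 Gnas, also missed the threshold (0.0566 to 0.0861). Other alternatives ended further calls. In macrophages Dusp1 was lost by DESeq2, under the stricter gate and at 5% mitochondrial UMIs (0.0552 to 0.093), Arrb1 by DESeq2 (0.0626), Gnas under the stricter gate (0.0547), and Fos, Arrb1 and Gnas without the cells with other RNA (0.0527 to 0.124). In microglia Egln3 was lost in cells assigned by likelihood, without the cells with most UMIs and at 5% mitochondrial UMIs (0.0521 to 0.148).

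**Figure D5:**
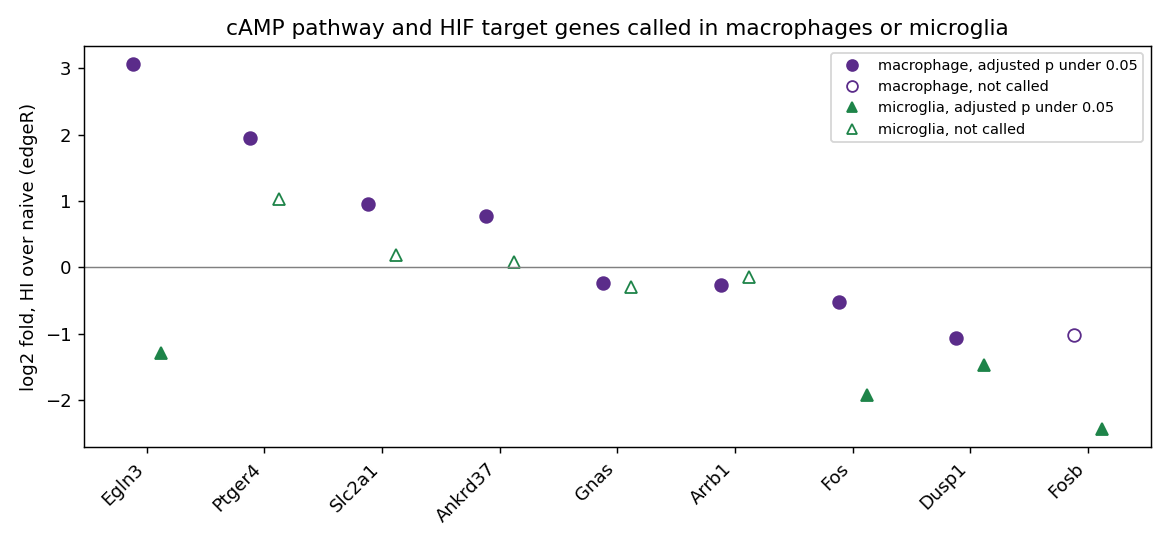
Log2 fold changes, HI over naive, from edgeR for the named pathway genes in macrophages (purple circles) and microglia (green triangles), filled where the adjusted p was under 0.05. Egln3 is above 0 in macrophages and below 0 in microglia, while Fos and Dusp1 are below 0 in both.

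By list, macrophages had 1 of 10 tested G protein and adenylyl cyclase genes lower, 1 of 7 desensitisation genes lower, 2 of 18 CREB family and target genes lower, 1 of 10 phosphodiesterase genes higher, 1 of 6 other Gs-coupled receptor genes higher and 6 of 11 HIF targets higher, and no call among 9 genes of protein kinase A and cyclic AMP effectors. Microglia had 3 of 15 CREB family and target genes and 1 of 10 HIF targets lower, and no call in the other lists. In classical monocytes, 26 to 56 cells a library, Nr4a2 and Areg, cyclic AMP target genes, had 23 and 32 and 20 and 41 UMIs in HI libraries. They had none in naive libraries (edgeR adjusted p = 0.0128 and 0.0117, while DESeq2 gave no adjusted p). Against a floor of 3 counts over the naive libraries, they were at least 13.9-fold and 15.4-fold higher. Neutrophil markers in these monocytes summed to 24587 and 20805 CPM in HI and 1898 and 6357 CPM in naive libraries. The part of neutrophil RNA in these counts, and any tie to Ramp1, was not tested. In mature neutrophils Slc2a1 rose, with 152 and 129 CPM in HI and 27.3 and 69.8 CPM in naive libraries (log2 1.74, edgeR adjusted p = 0.0174, and DESeq2 adjusted p = 0.0725). No other gene of the lists was called in these 2 types by edgeR. DESeq2 called Slc2a1 in classical monocytes (log2 2.17, adjusted p = 0.0291; edgeR adjusted p = 0.0795). In dendritic, T and B cells edgeR and DESeq2 called none, with 3, 1 and 0 at an unadjusted edgeR p under 0.05.

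The genes most like each receptor gene were ranked by Pearson correlation of log2(CPM + 1) over the 12 sums of 3 cell types in 4 libraries, among 7835 genes with a mean of at least 10 CPM. Most like Ramp1 were Kif21b, Skil, Acox3, Atp2c1 and Rcbtb2 (r = 0.944 to 0.953), all highest in microglia. Most like Calcrl were Dse, Eps15, Siglec1, Enox2 and Ap2s1 (r = 0.976 to 0.985), all highest in macrophages. The 12 sums share 4 libraries and 3 cell types, so the values describe a shared pattern over cell types and have no p.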

How the data were processed

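Droplet libraries (5′ chemistry, per the labels' protocols) of 4 meningeal pools were used. Cell Ranger 2.2.0, Seurat and the builds mm10 and GRCm38 are named in the submitters' processing notes, with no parameters. The deposited files hold raw UMI counts per gene and barcode. Kept barcodes had 200 or more genes, and mitochondrial UMIs made up no more than 10% of their total. A cell entered a gate when at least 50% of the gate's markers had a UMI, with a lead of 20 percentage points over any other lineage; cells near-equal between lineages (465) were set aside as possible doublets, no doublet caller was run, 199 cells reached no gate and 39 tied within a lineage. The thresholds were set after looking at the gates. A likelihood over all other genes gave the same class for 99.6% of macrophages, 98.8% of microglia and 98.9% of non-classical monocytes. Within 10 points of the threshold lay 774 macrophages inside and 418 cells outside it.

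Counts were summed per library and cell type and fitted with edgeR 4.0.16 (R 4.3.3; TMM, filterByExpr, quasi-likelihood test, Benjamini-Hochberg adjustment over all genes tested) where each library held at least 40 cells; types with at least 20 were added after seeing the data. In each type the fit used the HI and naive sums, and comparisons of cell types had library as a block. Alternatives were DESeq2 1.42.0 and its size factors, no count filter, stricter and likelihood gates, cell filters, a replicate block and leaving out each library. On simulated counts for the macrophage comparison (15314 genes, 200 changed) 91% of 2-fold and 97% of 4-fold changes were recovered, with 11 false calls. For 2-fold changes recovery was 85% in microglia and 75% in non-classical monocytes. The simulation gave all genes 1 common dispersion, unlike the data, so it cannot give the recovery or the false calls in the real libraries. Library totals were 51986763 to 68543046 UMIs, with 36292392 to 49477139 in macrophages. Ramp1, Calcrl and Ramp2 passed the count filter in macrophages and microglia. Ramp3 and Adm passed it in macrophages but not in microglia, and Adm also passed it in B cells. All 5 genes are described by UMI counts. Python 3.11.15 was used for gating and thinning (3000 UMIs per cell). The members and lists were chosen with earlier results of these data known. Pathway genes are named if called with non-overlapping libraries, up to 4 in each direction per type, besides the ligand and receptor genes tested; Pearson correlation ranked the most similar genes. Promoters came from RefSeq, in which 4 of the 5 genes had an entry.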

Additional observations from a re-analysis of the deposited data

Results flagged for a closer look

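Ramp2 values lay on opposite sides in 2 cell types, though neither change was called (edgeR adjusted p = 0.352 in macrophages and 0.233 in microglia). Both HI libraries were above both naive libraries in microglia (log2 0.76) and below both in macrophages (log2 -0.35, ratios of mean CPM), a gap of 1.11 on the log2 scale. The difference was not tested, and the levels rest on 37 and 43 UMIs in HI and 28 and 22 UMIs in naive microglia. For Calcrl the ratio of mean CPM, HI over naive, was log2 0.35 in microglia and -0.25 in non-classical monocytes. Neither was called (edgeR adjusted p = 0.651 and 0.883), and the fitted microglia value was 0.06 without HI library 2. The types had a gap of 0.60 that was not tested and rests on 18 HI and 31 naive UMIs in the monocytes. The HIF target Egln3 was higher in HI macrophages (log2 3.06) and lower in HI microglia (log2 -1.30), a gap of 4.36 that was not tested. Its level in HI macrophages also differed between the libraries, at 2.40 and 6.51 CPM.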

How the results depend on the processing

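The lower Ramp1 of HI macrophages (log2 -1.15) kept its sign under all 13 alternatives, and 12 were within the spread between replicates; the value was -1.27 without macrophages that carried neural or choroid plexus RNA, and -1.20 to -1.10 with 1 library left out. In microglia (log2 -0.76) all 12 alternatives were within that spread, -0.88 to -0.65 with 1 library left out. The number of genes called was less steady. In macrophages (587) it was 1861 with no count filter, 357 without cells with other RNA and 66 to 1316 with 1 library left out (66 without naive library 2, 233 without naive library 1 and 1316 without HI library 2). In microglia (58) it was 740 with no filter, 123 by DESeq2, 119 under the stricter gate, 287 without the cells with most UMIs and 5 to 960 with 1 library left out (5 without naive library 2, 14 without naive library 1, 298 without HI library 1 and 960 without HI library 2). In non-classical monocytes (171) it was 296 with no filter, 60 by DESeq2 and 20 to 184 with 1 library left out, with 20 without HI library 2 and 43 without naive library 2. With the replicate block the counts were 2080, 794 and 463 in macrophages, microglia and non-classical monocytes. Same-numbered libraries correlated in their deviations at 0.113, 0.0948 and 0.091 in these types. With 2 libraries a group, whether same-numbered libraries came from the same run was not tested. Ramp1 in non-classical monocytes crossed the threshold in 6 of 12 alternatives (edgeR adjusted p = 0.00128 with the block, 0.00835 with no filter, 0.658 without HI library 2). The signs that turned were those of Ramp1 in dendritic cells (-0.15 to 0.32 with 1 library left out) and Adm in B cells (-1.43 to 0.13), neither of which was called. The cause of these changes was not tested. Comparisons between cell types kept their counts within 1.5 times. Adm and Ramp3, with 180 and 144 UMIs in all, are limited by depth.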
